A study of Mus musculus with 7 samples.

Results

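Hox genes encode homeodomain transcription factors that give cells their position along the body axis. The mouse carries 39 of them in 4 clusters, Hoxa, Hoxb, Hoxc and Hoxd. All 45101 probe sets of the deposited array table were searched for probe sets that the platform annotation assigns to exactly 1 Hox gene of these clusters, control probe sets excepted. The search found 48 probe sets for 33 genes, among 34945 probe sets of 18193 genes in all. They comprised 9 Hoxa, 9 Hoxb, 7 Hoxc and 8 Hoxd genes, and 11 of the genes had several probe sets. Hox genes without a probe set of their own were not analysed here.

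Within a cluster the genes lie in the order of their numbers, low numbers acting towards the head and high numbers towards the tail, and genes with the same number in different clusters (paralogues) have similar proteins. Expression depends on Polycomb proteins, which keep the clusters silent, on Trithorax proteins, which keep them active, and on retinoic acid and CDX factors, which open them in the embryo. HOX proteins bind DNA together with the PBX, MEIS and PKNOX proteins. In skin, dermal fibroblasts retain a Hox pattern that reflects their body site, and Hoxc13 is needed for the formation of hair and nails in mice.

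Single-channel Affymetrix arrays measured 2 samples of mouse basal cell carcinoma and 2 of normal epidermis from newborn (P0) mice. A further 3 arrays held the PDKC1 line of mouse basal cell carcinoma cells, grown in conditioned medium, as control cells (0 h) and after 6 h and 10 h with cyclopamine, which blocks the Hedgehog pathway at Smoothened. Tissue arrays were labelled from 100 ng of RNA and PDKC1 arrays from 2 ug. The sources used here do not give strain, genotype, the age of the tumour-bearing mice, the body site of either tissue or the dose of cyclopamine, so carcinoma, age and body site cannot be told apart in the tissue comparison. Whether the replicates were separate animals is not stated, and the p-values therefore reflect a spread that may be technical. In bulk tissue, fewer cells of a type and less RNA per cell cannot be told apart.

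Several properties of the arrays differed with the groups. The ratio of 3' to 5' Actb control signal was 11.3 and 93.1 in the tumours, against 3.98 and 2.84 in epidermis and 1.15 to 1.21 in PDKC1. The median intensity over all probe sets was 118.2 and 127.9 in the tumours, against 71.0 and 75.3 in epidermis and 72.1 to 78.1 in PDKC1. The summed intensity of 15 fibroblast markers was 103567 and 128550 in the tumours, against 23385 and 21797 in epidermis and 6838 to 8245 in PDKC1. For 12 skeletal muscle markers the sums were 18470 and 3353 in the tumours, against 729 and 750 in epidermis, and for 12 keratinocyte markers they were 150398 and 116998 against 176730 and 209071. The keratinocyte sum was 115835 to 120560 in PDKC1. At 0 h 9 of the 12 keratinocyte markers lay over the array median of PDKC1, among them Krt5 (31322), Krt14 (33585) and Trp63 (8779). Those under it were Cdh1 (59.4), Epcam (9.60) and Krt17 (35.0). By limma, 16.6% of all genes were called higher in the tumours and 12.5% lower. Of the markers, 13 of 15 fibroblast, 4 of 12 muscle and 4 of 10 endothelial genes were higher and none of them lower. For keratinocytes 2 of 12 markers (Krt14 and Perp) were lower and 0 higher, with the lower share near that of all genes. Of 7 melanocyte markers 2 were higher and 1 lower, of 10 macrophage markers 3 were higher and 1 lower, and of 6 T and NK cell markers 0 were called (0 at an unadjusted p under 0.05). The part of these differences in the Hox results below was not tested.

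Promoter sequences of 5 members are shown. Hoxc4, Hoxa7, Hoxa5 and Hoxd8 have probe sets that were lower in the tumours, and Hoxd9, the neighbour of Hoxd8, had one that was higher. The called genes Hoxc13, Hoxc5 and Hoxc8 had no window in the reference used and could not be shown. Each window runs 5' to 3' from 250 bases before to 50 bases after the start of the gene in RefSeq (GRCm38.p6). The windows are chr15:103034145-103034444 (plus strand) for Hoxc4, chr6:52218524-52218823 (minus strand) for Hoxa7, chr6:52204538-52204837 (minus strand) for Hoxa5, chr2:74704365-74704664 (plus strand) for Hoxd8 and chr2:74697513-74697812 (plus strand) for Hoxd9. Capitals mark CCACCCA, the core of the sequence bound by the GLI factors of the Hedgehog pathway, or its reverse complement.
Hoxc4: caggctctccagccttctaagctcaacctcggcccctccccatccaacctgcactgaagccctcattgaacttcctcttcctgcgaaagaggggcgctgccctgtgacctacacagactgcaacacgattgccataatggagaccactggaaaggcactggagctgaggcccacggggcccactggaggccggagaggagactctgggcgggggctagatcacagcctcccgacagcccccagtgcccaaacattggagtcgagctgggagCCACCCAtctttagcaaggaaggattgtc
Hoxa7: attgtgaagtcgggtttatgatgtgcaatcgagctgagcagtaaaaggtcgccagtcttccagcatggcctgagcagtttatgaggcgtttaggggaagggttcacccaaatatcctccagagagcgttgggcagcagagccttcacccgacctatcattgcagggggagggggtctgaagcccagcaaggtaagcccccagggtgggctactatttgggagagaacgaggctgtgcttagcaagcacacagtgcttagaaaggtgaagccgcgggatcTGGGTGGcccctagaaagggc
Hoxa5: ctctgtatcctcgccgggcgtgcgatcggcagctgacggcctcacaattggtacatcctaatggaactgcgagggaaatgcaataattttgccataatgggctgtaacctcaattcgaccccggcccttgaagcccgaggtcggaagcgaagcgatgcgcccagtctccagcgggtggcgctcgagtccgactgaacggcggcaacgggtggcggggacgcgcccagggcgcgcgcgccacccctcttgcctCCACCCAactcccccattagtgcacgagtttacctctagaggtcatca
Hoxd8: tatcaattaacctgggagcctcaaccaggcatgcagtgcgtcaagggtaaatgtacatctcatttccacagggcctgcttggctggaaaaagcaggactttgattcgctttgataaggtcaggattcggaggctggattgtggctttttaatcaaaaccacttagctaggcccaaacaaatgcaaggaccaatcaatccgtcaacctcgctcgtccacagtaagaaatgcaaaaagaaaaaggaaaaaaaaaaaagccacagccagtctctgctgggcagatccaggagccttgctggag
Hoxd9: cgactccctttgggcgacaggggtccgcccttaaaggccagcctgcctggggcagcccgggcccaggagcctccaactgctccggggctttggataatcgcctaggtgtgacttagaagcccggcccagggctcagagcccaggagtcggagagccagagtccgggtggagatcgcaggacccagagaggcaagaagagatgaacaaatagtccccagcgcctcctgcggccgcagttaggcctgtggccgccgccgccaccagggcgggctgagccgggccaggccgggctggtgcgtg

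The core was present in 1 copy in the Hoxc4, Hoxa7 and Hoxa5 windows and in none of the letters shown for Hoxd8 and Hoxd9. Both strands were searched. The members had 21 windows, from 19 of the 33 genes, and the other members had none. The core occurred in 4 of the 21 windows, those of Hoxc4, Hoxa7, Hoxa5 and Hoxa13, and in 9.30% of all 32851 promoter windows. The full consensus GACCACCCA, which contains the core, occurred in 0 of 21 windows and in 0.253% of all. TGATNNAT, the composite sequence bound by PBX and HOX proteins together, occurred in 3 of 21 windows (Hoxa2, Hoxb1 and Hoxd11) and in 8.85% of all. The dinucleotide CG, which is abundant in CpG islands, occurred 29 times in the Hoxa5 window and 20 times in that of Hoxd9, against 9 in Hoxc4, 9 in Hoxa7, 6 in Hoxd8 and a median of 7 over all windows. A match describes these letters and does not show binding.

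Most Hox genes were dim. Intensities of different probe sets do not give relative amounts of RNA, so the median probe set of each array serves here only as a line between brighter and dimmer signals. In the tumours 5 of the 33 genes (15.2%) lay over the median on both arrays, and in epidermis 14 (42.4%) did. The shares over all genes were 57.4% in the tumours and 60.6% in epidermis. In PDKC1 at 0 h 9 of the 33 genes (27.3%) lay over it, against 59.1% of all genes. The clusters differed in where their members were over the median. Of the 9 Hoxa genes 1 was over it in both tumours, 6 in both epidermis arrays and 7 in PDKC1 at 0 h. Of the 9 Hoxb genes the counts were 2, 3 and 1 in the same order, of the 7 Hoxc genes 1, 4 and 1, and of the 8 Hoxd genes 1, 1 and 0. At the 75th percentile of each array 0 members remained in the tumours and in PDKC1 at 0 h, and 3 in epidermis. The shares of all genes over that percentile are not given here.

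**Figure D1:**
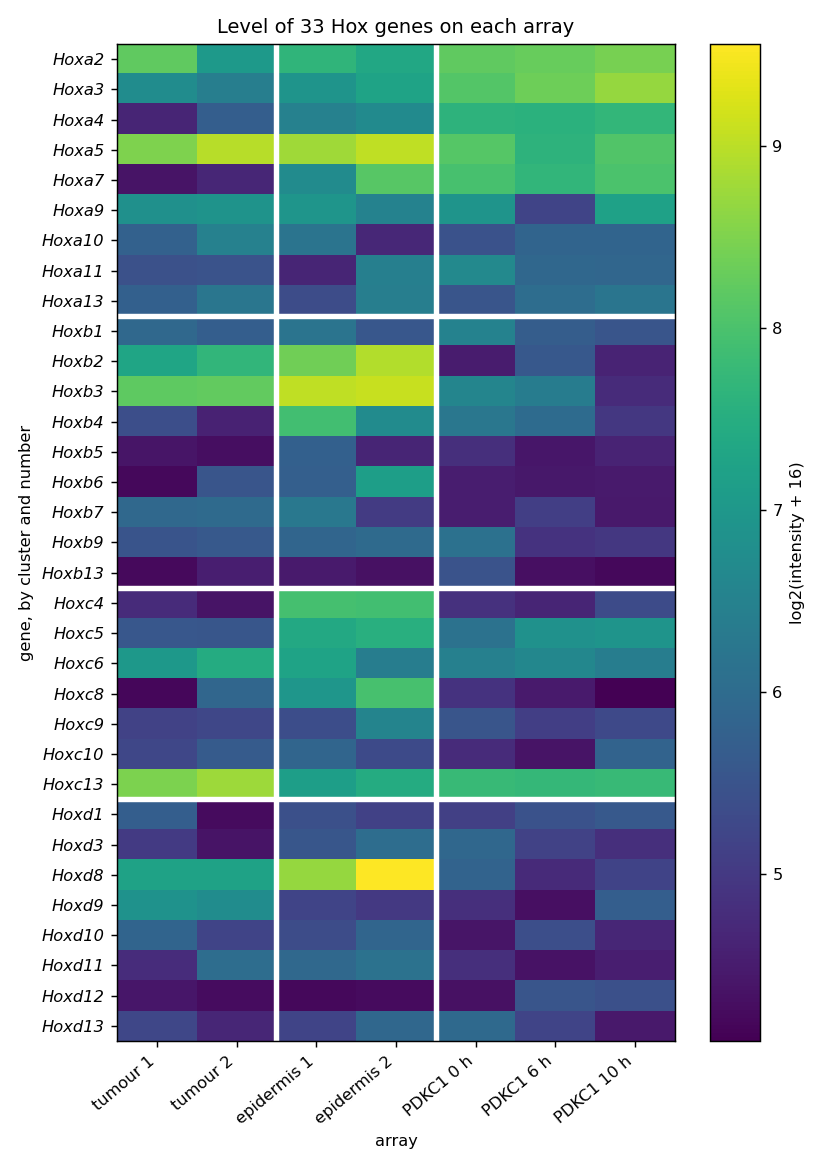
Level of the 33 Hox genes on each of the 7 arrays, as log2(intensity + 16), with genes in rows by cluster and number and arrays in columns. Hoxa3 and Hoxa4 are each brightest in PDKC1, Hoxb2, Hoxb3 and Hoxd8 in epidermis, and Hoxc13 in the tumours. Hoxa7 is brighter in PDKC1 and epidermis than in the tumours. The Hoxa5 set shown is bright on every array and dimmer in PDKC1 than in the tissues.

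Tumour was then set against newborn epidermis to find the Hox genes whose level differs between them. Without further scaling of the arrays, the genes called lower in the tumours had numbers from 4 to 8: of these 12 central genes limma called 6 lower and 0 higher, and their median log2 difference was -1.74 (tumour minus epidermis). Of the 14 posterior genes, numbered 9 to 13, 2 were higher and 0 lower (median -0.05), and of the 7 anterior genes, numbered 1 to 3, 0 were called in either direction (median -0.51, with 2 at an unadjusted p under 0.05). Over the 33 genes this made 6 lower (18.2%) and 2 higher (6.06%). Over all 18193 genes 12.5% were called lower and 16.6% higher, with a median of 0.09. The 6 lower genes were Hoxa7, Hoxb4, Hoxc4, Hoxc5, Hoxc8 and Hoxd8, at least 1 from each cluster. The higher genes were Hoxc13 and Hoxd9. The positions also differed in level. Over the median of both epidermis arrays lay 8 of the 12 central, 2 of the 14 posterior and 4 of the 7 anterior genes. A gene that is dim in epidermis has little room to be lower in the tumours. The part of this in the calls by position was not tested.

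These counts and positions moved with the settings. With quantile normalization 9 members were lower and 0 higher, and with the arrays centred on their medians 11 were lower and 0 higher. For the alternative settings the shares of all genes called are not given here. Their counts of members therefore cannot be read against such a share. The anterior genes Hoxb2 and Hoxb3 were among those lower with either scaling, without dim genes and without tumour 2, Hoxb2 with the mean of probe sets, Hoxb3 without tumour 1, and Hoxd3 with centring. Centring moved the median of all genes to -0.43 and quantile normalization to -0.09. Without tumour 1 the counts were 6 lower and 1 higher, without tumour 2 they were 8 and 0, without epidermis array 1 they were 3 and 0, and without epidermis array 2 they were 2 and 0. The tumours lay below both epidermis arrays for 15 of the 33 genes, against 29.8% of all genes, and above both for 3, against 35.8%.

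**Figure D2:**
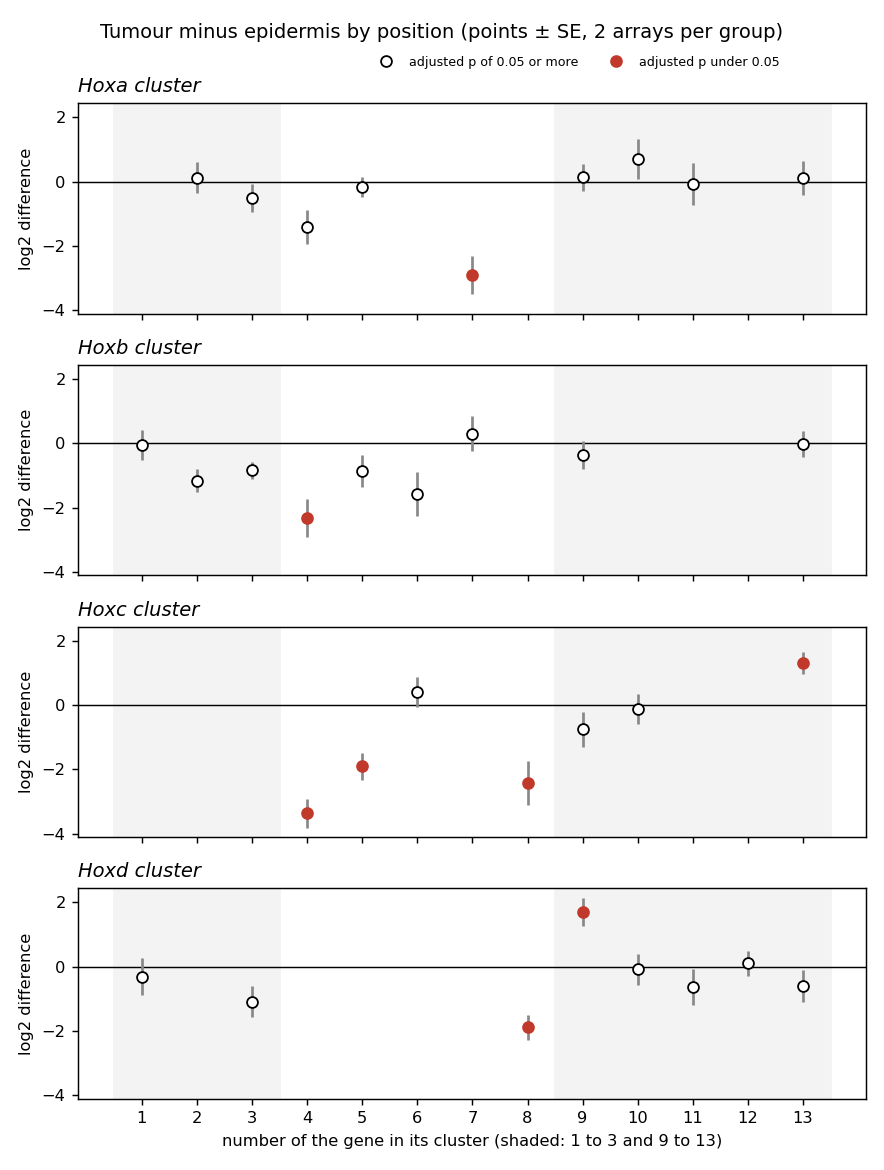
Log2 difference, tumour minus epidermis, of each Hox gene against its number in the cluster, with 1 panel per cluster; points are estimates from 2 arrays per group, bars are SE, and filled points have an adjusted p under 0.05. The 6 filled points below 0 lie between numbers 4 and 8, and the 2 above 0 lie at 9 and 13.

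In the Hoxc cluster, the central genes Hoxc4, Hoxc5 and Hoxc8 and the last gene, Hoxc13, moved in opposite directions. Hoxc4 had intensities of 11.1 and 4.5 in the tumours, against 229.7 and 224.6 in epidermis. The tumour values lay near the bottom of the arrays, at the percentiles 12.9 and 3.8, and those of epidermis at 69.3 and 68.1. The log2 difference was -3.37 ± 0.44 (SE, 2 arrays per group; adjusted p = 0.00267), and it was called in each alternative that kept the gene, with an adjusted p of 0.000306 to 0.0291.

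Hoxc5, which acts in the neck and upper trunk, had 31.1 and 30.6 in the tumours, against 151.4 and 168.8 in epidermis. The groups did not overlap, and the log2 difference was -1.91 ± 0.42 (adjusted p = 0.0168). The other probe sets of Hoxc5 were dim in both tissues, at 32.6 and 3.2 in the tumours against 3.3 and 5.3 in epidermis for 1450832_at, and 18.0 and 16.6 against 17.7 and 16.8 for 1456301_at, and with the mean of the 3 probe sets Hoxc5 was not called (-0.44, adjusted p = 0.458). It was also not called without epidermis array 1 (0.0991) or 2 (0.113).

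Hoxc8, which patterns the thoracic vertebrae, had 2.1 and 43.2 in the tumours, against 108.0 and 233.6 in epidermis. The groups did not overlap, but the arrays of each group lay far apart. The log2 difference was -2.43 ± 0.69 (adjusted p = 0.0392), and the call was lost with a pseudocount of 4 (0.0534), without a variance trend (0.0623), and without tumour 1 (0.0757), epidermis array 1 (0.0860) or epidermis array 2 (0.199).

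Hoxc13 had 340.9 and 419.2 in the tumours, against 126.1 and 159.5 in epidermis. Both tumours lay above both epidermis arrays, by 1.32 ± 0.34 on the log2 scale (adjusted p = 0.0283). With quantile normalization the difference was 0.95 (0.0981) and with centring 0.80 (0.113), and it was not called without tumour 2 (0.0635), epidermis array 1 (0.206) or epidermis array 2 (0.132). Its percentile within the array was 67.6 and 71.5 in the tumours, against 61.4 and 63.7 in epidermis.

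Of the other Hoxc genes Hoxc6 had 112.3 and 159.7 in the tumours, against 137.4 and 68.1 in epidermis, and the groups overlapped (adjusted p = 0.586). Hoxc9 and Hoxc10 were at 19.6 to 34.4 in the tumours, against 23.4 to 78.1 in epidermis, and neither was called.

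In the Hoxa cluster 1 of 9 genes was called, Hoxa7, which was lower, against 12.5% of all genes called lower and 16.6% higher. In human keratinocytes HOXA7 represses differentiation genes. Hoxa7 had 4.8 and 9.4 in the tumours, against 90.1 and 264.5 in epidermis, so that the groups did not overlap. The log2 difference was -2.91 ± 0.58 (adjusted p = 0.0115), and the call was lost without epidermis array 2 (0.0649).

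The 2 probe sets of Hoxa5, which shapes the neck and upper thoracic skeleton and the lung, gave different results. The set 1443803_x_at, which stood for the gene by its higher mean, had 347.2 and 490.1 in the tumours, against 426.9 and 510.5 in epidermis, with overlapping groups and a log2 difference of -0.17 ± 0.30 (adjusted p = 0.724). The set 1448926_at had 6.1 and 31.8 in the tumours, against 384.6 and 532.0 in epidermis. Here the groups lay far apart, with a log2 difference of -3.85 ± 0.52 (adjusted p = 0.00279 over all probe sets), and the difference was called in 11 of 11 alternatives chosen after the data were seen. With the mean of both sets Hoxa5 was called lower (-2.01, adjusted p = 0.00906). The suffix _x_at is the maker's mark for a set with probes that may match several transcripts. In the fit with 1 row per probe set 10.7% of all probe sets were lower and 16.6% were higher.

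Hoxa4 had 9.2 and 36.7 in the tumours, against 74.1 and 88.9 in epidermis. The tumours lay below both epidermis arrays, but the difference was not called (-1.42 ± 0.52, adjusted p = 0.0880) except with quantile normalization (0.0392), with centring (0.0283), with all 7 arrays in the fit (0.0301) or without tumour 2 (0.0373). The other Hoxa4 probe set, 1420226_x_at, had 40.9 and 39.7 in the tumours, against 22.0 and 63.9 in epidermis (0.03, adjusted p = 0.974). With the mean of both sets Hoxa4 was at -0.69 (adjusted p = 0.295). Hoxa3, needed for the thymus and parathyroid glands, had 91.0 and 70.1 in the tumours, against 105.5 and 137.4 in epidermis, with an adjusted p of 0.427. The Hoxa3 set 1429398_at went the other way, with 50.1 and 87.9 in the tumours against 9.1 and 7.6 in epidermis (1.77 ± 0.47, adjusted p = 0.0317), and was called in 7 of 11 alternatives. All of its values in the tumours were under the array median.

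Hoxa2, which sets the identity of the second branchial arch, had 284.9 and 115.7 in the tumours, against 187.0 and 148.8 in epidermis, and Hoxa9, known from blood cell formation and leukaemia, had 97.4 and 103.6 against 107.3 and 75.7. The groups overlapped for both genes, with adjusted p of 0.884 and 0.856. Hoxa10, Hoxa11 and Hoxa13 were at 27.7 to 74.1 in the tumours, against 9.1 to 71.3 in epidermis, and the groups overlapped for each.

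In the Hoxb cluster 8 of 9 genes had a difference below 0, against 8457 of all 18193 genes. Limma called 1 of the 9 lower, near the 12.5% of all genes. This was Hoxb4, which expands blood stem cells when it is supplied in excess. Hoxb4 had 26.3 and 8.2 in the tumours, against 225.0 and 90.3 in epidermis, without overlap (-2.32 ± 0.58, adjusted p = 0.0255). Its other probe set, with 5.7 and 21.4 in the tumours against 43.6 and 75.8 in epidermis, had the same sign and an adjusted p of 0.0922. The call of Hoxb4 was lost without tumour 2 (0.0600) or epidermis array 1 (0.150).

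Hoxb2 and Hoxb3 pattern the hindbrain, and they were over the median of every tissue array. Hoxb2 had 141.7 and 189.0 in the tumours, against 317.2 and 472.9 in epidermis (-1.17 ± 0.36, adjusted p = 0.0518). Hoxb3 had 276.7 and 288.7 in the tumours, against 508.9 and 529.5 in epidermis (-0.84 ± 0.27, adjusted p = 0.0593). For both genes the tumours lay below both epidermis arrays. Each passed the threshold with quantile normalization (Hoxb2 0.0229, Hoxb3 0.0286), with centring (0.0107, 0.00948) and without tumour 2 (0.0285, 0.0417). The other Hoxb3 probe set had 136.9 and 175.7 in the tumours, against 124.0 and 58.2 in epidermis, and was not called (0.75, adjusted p = 0.307).

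Hoxb1, which specifies a hindbrain segment, had 45.1 and 36.9 in the tumours, against 56.7 and 31.2 in epidermis, with overlap. Hoxb6 had 2.4 and 29.9 against 37.6 and 126.2, without overlap and without a call (adjusted p = 0.130). Hoxb5, Hoxb7, Hoxb9 and Hoxb13 were at 2.7 to 46.9 in the tumours, against 4.0 to 61.8 in epidermis, and none was called.

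In the Hoxd cluster the neighbours Hoxd8 and Hoxd9 differed in direction. Hoxd8 had 135.6 and 134.5 in the tumours, against 398.7 and 740.2 in epidermis, without overlap (-1.89 ± 0.38, adjusted p = 0.0122). Its other probe set had 77.9 and 117.5 in the tumours, against 94.2 and 182.1 in epidermis, and was not called (-0.40, adjusted p = 0.602). The mean of both sets gave -1.15 (0.0647), and the call was also lost without epidermis array 2 (0.147).

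Hoxd9, which acts with its paralogues in the forelimb and lumbar spine, had 100.7 and 91.7 in the tumours, against 21.0 and 16 in epidermis. The groups did not overlap, and the log2 difference was 1.70 ± 0.44 (adjusted p = 0.0281). Both tumour values were under the median of their array. The adjusted p was 0.0612 with quantile normalization and 0.0847 with centring, and 0.0571, 0.0528, 0.122 and 0.154 without tumour 1, tumour 2, epidermis array 1 and epidermis array 2. Hoxd3, which patterns the upper cervical vertebrae, had 16.4 and 4.8 in the tumours, against 30.4 and 49.7 in epidermis (adjusted p = 0.138, and 0.0385 with centring).

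The limb gene Hoxd13 had 22.1 and 9.5 in the tumours, against 20.9 and 44.2 in epidermis, and Hoxd11 had 11.2 and 49.5 against 44.9 and 54.8. Both overlapped between the groups. Hoxd1, Hoxd10 and Hoxd12 were at 2.8 to 41.7 in the tumours, against 2.3 to 42.7 in epidermis, and none was called.

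**Figure D3:**
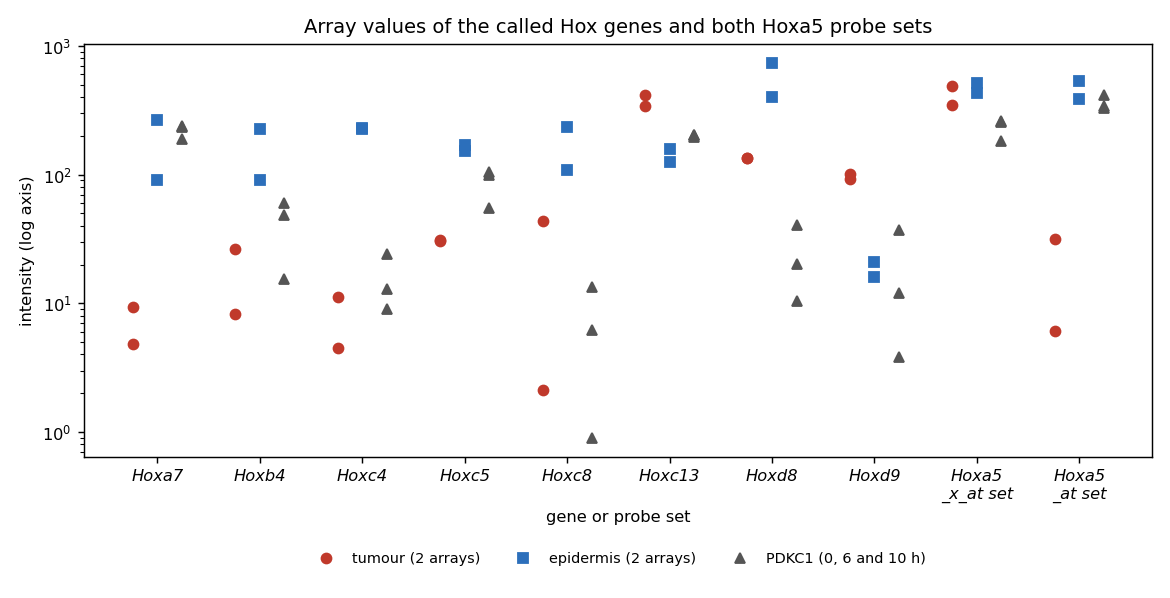
Intensity on a log axis, array by array, of the 8 Hox genes called between tumour and epidermis and of both Hoxa5 probe sets; circles are tumours, squares epidermis and triangles PDKC1 at the 3 times. PDKC1 lies near epidermis for Hoxa7 and for the Hoxa5 set 1448926_at, and near the tumours for Hoxc4.

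PDKC1 at 0 h was set beside the tissues without a test, since there was 1 array. Of the 9 Hox genes over its array median 5 were anterior or central Hoxa genes (Hoxa2, Hoxa3, Hoxa4, Hoxa5 and Hoxa7), and the others were Hoxa9, Hoxa11, Hoxb3 and Hoxc13. Hoxa3 had 256.8 in PDKC1, against a tumour pair of 91.0 and 70.1, Hoxa4 had 181.3 against 9.2 and 36.7, and Hoxa7 had 235.4 against 4.8 and 9.4. On the scale of log2(intensity + 16), PDKC1 was 1.51 above the tumour mean for Hoxa3, 2.44 for Hoxa4 and 3.45 for Hoxa7. The other Hoxa4 set, 1420226_x_at, was not higher, with 37.0 in PDKC1 against 40.9 and 39.7 in the tumours. Of the other Hoxa3 sets, 1452421_at was higher in PDKC1 (227.5) than in the tumours (66.4 and 59.9). The Hoxa3 sets 1429398_at (32.8) and 1431392_at (5.7) were lower in PDKC1 than in both tumours. The Hoxa5 set 1448926_at had 331.2 in PDKC1, in the direction of the epidermis values. Hoxa2 had 282.2.

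Some Hoxb and Hoxd genes were dimmer in the cell line than in the tumours, and others were brighter. Hoxb2 had 6.5 in PDKC1 at 0 h, a log2 difference of -3.00 from the tumour mean, and Hoxb3 had 79.2 (-1.65). Hoxd8 had 40.7 (-1.41) and Hoxd9 had 12 (-2.0). Hoxc4, at 12.9, lay near the tumour values, and Hoxc8 had 13.3, between them. Hoxc13 had 202.2, between the epidermis and the tumour values. Over the 33 genes 7 were at least 2-fold higher in PDKC1 than the tumour mean, of which 4 were Hoxa genes. The others were Hoxb4 (1.26), Hoxb13 (1.09) and Hoxd3 (1.22), each under the array median of PDKC1 at 0 h. A further 6 were at least 2-fold lower, of which 3 were Hoxb and 3 Hoxd genes. Over all genes 16.8% were at least 2-fold higher and 27.3% at least 2-fold lower. Cell line and tumour differ also in cell types present, in culture and in the amount of RNA labelled, which cannot be told apart here.

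Cyclopamine was followed in PDKC1 at 0 h, 6 h and 10 h with 1 array per time, and no test was made. Of the 33 genes 11 were over the array median at 1 time or more. Among these 0 were at least 2-fold lower and 0 at least 2-fold higher than at 0 h at both later times, against 1.01% lower and 0.924% higher of the 11585 genes over the median. The bright Hoxa genes and Hoxc13 stayed within 2-fold of 0 h. Hoxa2 had 282.2, 295.6 and 331.9 at 0 h, 6 h and 10 h, Hoxa4 had 181.3, 174.5 and 192.8, and Hoxa7 had 235.4, 188.9 and 240.4. Hoxc13 had 202.2, 197.0 and 204.4. Hoxa3 had 256.8, 310.1 and 396.4, a log2 difference of 0.60 at 10 h. Hoxa5 had 261.6, 181.9 and 254.7 with the set that stood for it, and 331.2, 339.1 and 416.5 with 1448926_at.

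Some of the dimmer members varied more. Hoxa9 had 104.1, 20.8 and 132.5 with the set that stood for it, so that 6 h stood apart from both other times. Its other probe set, 1455626_at, had 66.3, 4.0 and 7.4 and stayed low at 10 h. Hoxb3 had 79.2, 67.8 and 11.0, low at 10 h. Hoxc5 had 54.8, 98.8 and 104.0 and was more than 1.5-fold higher at both times. Hoxa11, with 85.5, 44.5 and 43.4, was more than 1.5-fold lower at both. Hoxb3 and Hoxa11 were over the array median only at 0 h, Hoxc5 only at 6 h and 10 h, and Hoxa9 only at 0 h and 10 h. Each passed the filter on level only through the times at which it was high, so the direction of its change is partly set by the filter. Hoxc6 had 72.1, 82.9 and 68.6 with the set that stood for it. Its other sets were lower at 6 h, with 85.3, 12.9 and 76.2 (1427361_at) and 20.0, 9.0 and 50.7 (1427454_at). With no filter on level, Hoxb9 and Hoxb13 were at least 2-fold lower at both times and Hoxd12 at least 2-fold higher, all at intensities of 2.3 to 54.1. The shares of all genes at 1.5-fold, or at 2-fold with no filter, are not given here.

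**Figure D4:**
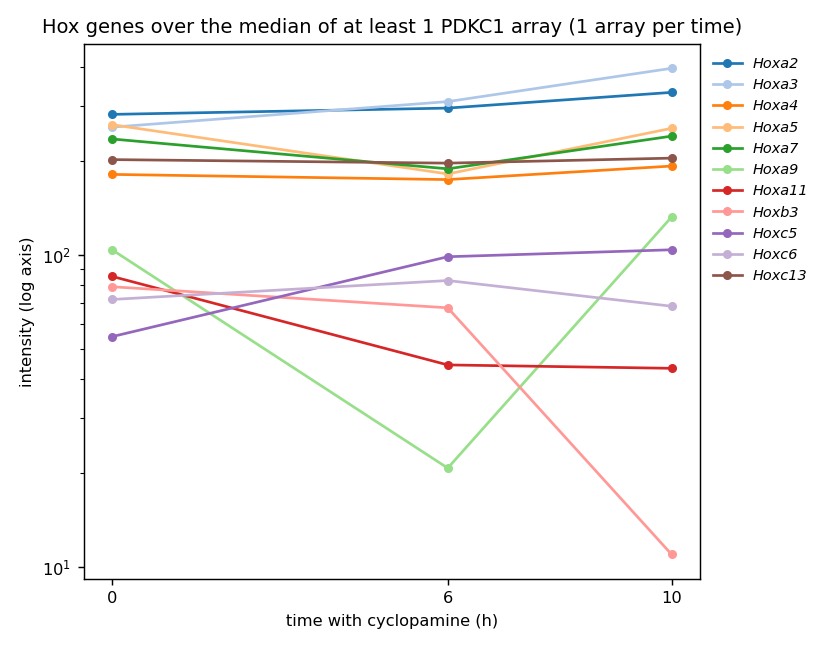
Intensity on a log axis of the 11 Hox genes over the median of at least 1 PDKC1 array, against hours with cyclopamine, with 1 array per time. The lines of Hoxa2, Hoxa4, Hoxa7 and Hoxc13 are nearly flat, while Hoxa9 dips at 6 h and Hoxb3 is low at 10 h.

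Among the partners of HOX proteins, 2 of 8 measured PBX, MEIS and PKNOX genes were higher in the tumours and 0 lower, with a median of 0.46. Over all genes 16.6% were higher and 12.5% lower. Meis1 had 686.6 and 501.0 in the tumours, against 201.9 and 192.2 in epidermis (1.5 ± 0.31, adjusted p = 0.0125). Pbx3 had 1998 and 1886 in the tumours, against 980.1 and 917.0 in epidermis (1.02 ± 0.21, adjusted p = 0.0116). With centring the difference of Pbx3 was 0.51 (0.116) and that of Meis1 0.98 (0.0467), and without either epidermis array 0 of the 8 were called.

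Of 16 Polycomb genes 4 were higher and 1 lower (median 0.48), against 16.6% higher and 12.5% lower of all genes, so the counts were near the background. Bmi1, a subunit of the complex that ubiquitinates histone H2A, had 5594 and 9275 in the tumours, against 1938 and 1768 in epidermis (1.95 ± 0.28, adjusted p = 0.00346), and Phc3 of the same complex differed by 1.70 ± 0.21. Suz12, a subunit of the complex that methylates histone H3 at lysine 27, differed by 1.06 ± 0.23. Cbx2, which binds that mark, was lower (-1.02 ± 0.24). The counts were 2 and 1 with centring, 5 and 1 with quantile normalization, and 2 and 0 without epidermis array 1.

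Of 10 Trithorax and demethylase genes 2 were higher and 2 lower (median 0.15), also near the shares of 16.6% and 12.5% over all genes. Kmt2a, a histone H3 lysine 4 methyltransferase gene that maintains Hox expression, differed by 1.54 ± 0.35 (adjusted p = 0.0177) and its relative Kmt2b by 1.03 ± 0.28. Ash2l (-1.69 ± 0.29, adjusted p = 0.00655) and Dpy30 (-1.22 ± 0.21), which encode core subunits of the methyltransferase complexes, were lower. With centring 0 were higher and 2 lower, and without either epidermis array none was called. In the list of CDX and retinoid genes 1 of 10 was called, the retinoic acid synthesis gene Aldh1a3 (2.05 ± 0.46, adjusted p = 0.0170), with a list median of -0.11.

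Of 7 hair genes linked to HOXC13 3 were lower and 0 higher (median -1.58), against 12.5% lower and 16.6% higher of all genes, while Hoxc13 itself was higher. Foxn1, a transcription factor gene of the hair shaft, had 97.8 and 95.7 in the tumours, against 371.3 and 330.7 in epidermis (-1.70 ± 0.35, adjusted p = 0.0123). The hair keratin gene Krt36 differed by -2.49 ± 0.43, and Krt35 by -3.07 ± 0.89 (adjusted p = 0.0414). Krt35 was not called with quantile normalization (0.0611), and without either epidermis array 1 gene of the list was called.

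**Figure D5:**
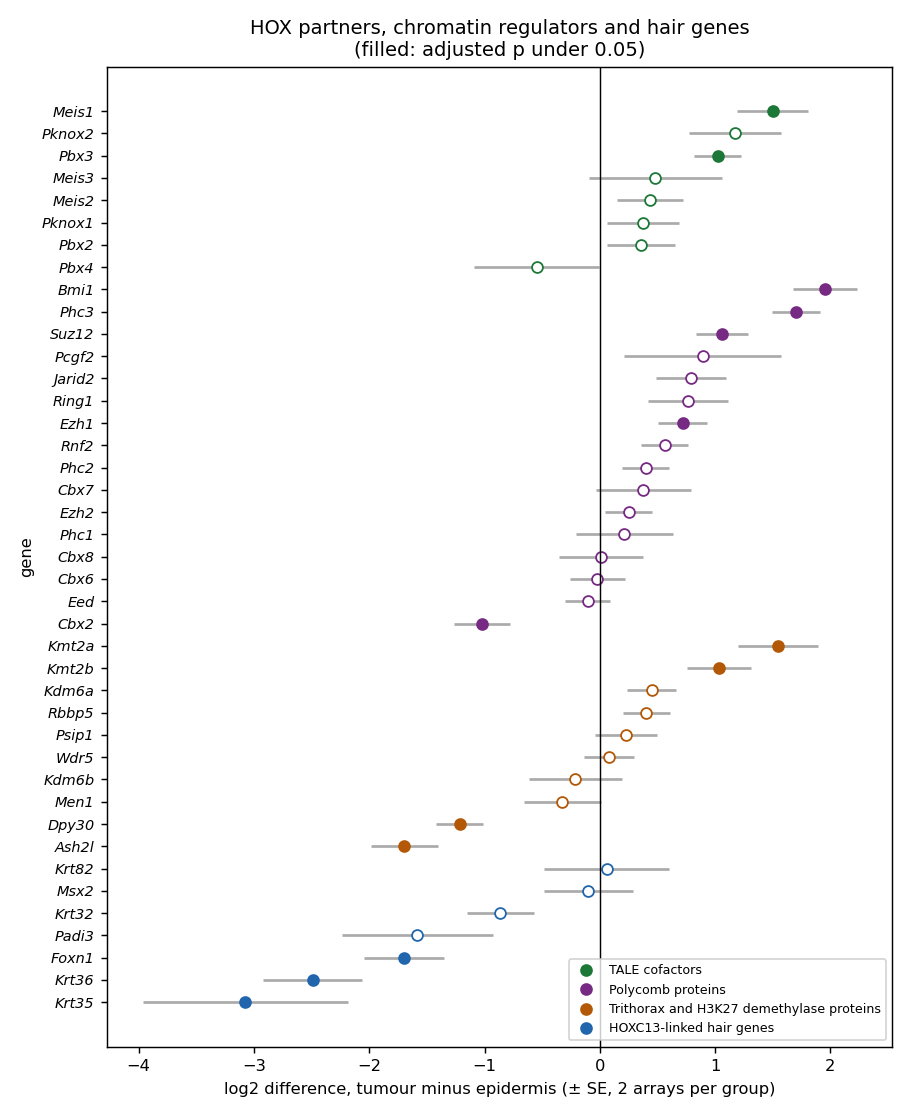
Log2 difference, tumour minus epidermis, of HOX partner, Polycomb, Trithorax and HOXC13-linked hair genes, as estimates from 2 arrays per group with SE bars; filled points have an adjusted p under 0.05. Bmi1 and Phc3 lie farthest above 0, and Krt35, Krt36 and Foxn1 farthest below.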

How the data were processed

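RNA abundance was measured on 7 Affymetrix arrays. The deposited values are linear signal intensities, 1 per probe set and array. Their software is not given in the sources used here. Each array's mean between the percentiles 2 and 98 lay within 1 unit of 500, and no further normalization was applied. Per the labels' protocols, total RNA came from a column kit and the cRNA was biotinylated. Of 45101 probe sets, 64 controls, 932 that the platform annotation gives to several genes and 9160 with no gene there were left out. Symbols were updated through Entrez identifiers. Each of 18193 genes was represented by whichever of its probe sets had the highest mean of log2(intensity + 16) over the 7 arrays. The 4 tissue arrays were fitted in R 4.3.3 by limma 3.58.1 (eBayes with a variance trend, two-sided). P-values were adjusted by the Benjamini-Hochberg method over every gene, and a gene was called where its adjusted p was under 0.05. A second fit used every probe set. The fit was tested only on simulated data with independent normal values. This does not show how it performs on arrays that differ in RNA quality or scale. PDKC1 was described without a test. Fold changes are on the log2(intensity + 16) scale, which understates changes of dim genes.

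The members and the gene lists were chosen with earlier results of these data known. Values on every tissue array are given for members called between the tissues and for members whose probe sets disagree. They are also given for members over the array median in both arrays of a tissue and in PDKC1 at 0 h. The same holds for the brightest 2 of each cluster in each state. Values in PDKC1 are given for some members only, and most other members are given by range. From each other list up to 4 called genes are named. Alternatives were quantile normalization, median centring of the arrays, pseudocounts of 4 and 64, removal of genes below the 40th percentile, averaging a gene's probe sets, a constant prior variance (no trend), the replicate number as a block, all 7 arrays in 1 fit, leaving out each tissue array, and other levels and folds. The replicate numbers of the tissues are not tied by any label. The number of arrays limits the precision.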

Additional observations from a re-analysis of the deposited data

How the results depend on the processing

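Hox genes called lower in the tumours numbered 6, and 5 to 7 with a pseudocount of 4 or 64, the mean of probe sets, no variance trend, all 7 arrays or every probe set. The members changed: the mean of probe sets lost Hoxc5 and Hoxd8 and gained Hoxa5 (-2.01, adjusted p = 0.00906) and Hoxb2 (adjusted p = 0.0345). They numbered 11 with centring, 3 without genes under the 40th percentile, which kept 7 of the 33 members in the fit, and 2 to 8 when 1 array was left out. Genes called higher numbered 2, but 0 with quantile normalization and with centring, 1 without dim genes, and 0 to 1 when 1 array was left out. With the replicate number as a block 7 were lower and 2 higher. The share of all genes called under each alternative is not given here, so these counts lack that comparison. The differences between replicates 1 and 2 correlated at r = -0.0006 between the tissues over 18193 genes. With only 1 such difference per tissue this cannot decide whether the samples were paired, and no label states a pairing.

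The median log2 difference of all members was -0.37, and -0.69 with quantile normalization, -0.88 with centring, -0.57 with a pseudocount of 4, -0.19 with 64 and -0.16 over every probe set (-0.47 to -0.34 with 1 array left out). The Hoxa median of -0.09 was -0.60 with centring and -0.43 to -0.047 with 1 array left out. The Hoxb median of -0.84 was -1.36 with centring, -0.34 with a pseudocount of 64, -0.37 with the mean of probe sets and -0.82 to -0.42 with 1 array left out. The Hoxc median of -0.76 was -1.08 with quantile normalization, -1.27 with centring, -0.41 with 64, -0.44 with the mean of probe sets, -0.13 over every probe set and -1.35 to -0.42 with 1 array left out. The Hoxd median of -0.45 was -0.97 with centring and -0.64 to -0.061 with 1 array left out. For anterior genes -0.51 became -1.06 with quantile normalization, -1.02 with centring, -0.047 with the mean of probe sets, -0.043 over every probe set and -0.81 to -0.35 with 1 array left out. For central genes -1.74 became -2.11 with quantile normalization, -2.25 with centring, -2.11 with a pseudocount of 4, -1.03 with 64, -1.37 with the mean of probe sets, -1.12 over every probe set and -1.91 to -1.25 with 1 array left out. For posterior genes -0.05 became -0.56 with centring and -0.14 to 0.05 with 1 array left out. The cause of these shifts was not tested.

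Over the 60th percentile of the arrays lay 3 members in both tumours, 8 in both epidermis arrays and 6 in PDKC1 at 0 h, and over the 75th percentile 0, 3 and 0. The shares of all genes over these percentiles are not given here. In PDKC1, 1 member was lower and 1 higher at both times at 1.5-fold, and 2 were lower and 1 higher with no filter on level. The shares of all genes under these 2 settings are not given here, so the counts cannot be read against them.

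Among 20 named members 16 of 247 alternative values changed sign, and each of these was of a member that was not called. Hoxa2 was at -0.43 with quantile normalization, -0.39 with centring and -0.47 to 0.72 with 1 array left out. Hoxa9 was at -0.36 with quantile normalization, -0.39 with centring, -0.75 with averaged probe sets and -0.082 to 0.34 with 1 array left out. Under the same settings Hoxc6 was at -0.073, -0.11, -0.15 and -0.031 to 0.84. Hoxa3 was at 0.31 with averaged probe sets. With 1 array left out Hoxa5 was at -0.41 to 0.068 and Hoxb1 at -0.35 to 0.27.

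Over the 13 alternatives the number of genes called higher was 0 to 3 for HOX partners, 1 to 7 for Polycomb, 0 to 3 for Trithorax, 0 to 2 for CDX and retinoid genes and 0 for hair genes. The number called lower was 0, 0 to 1, 0 to 3, 0 to 1 and 1 to 5 in the same order. The block changed 1 of these counts, Polycomb genes called higher, which was 3 with it and 4 without. Alternatives for second probe sets and lists were chosen after seeing the data.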

Other observations

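RNAs other than the Hox genes themselves are also made from the clusters. Hoxd3os1, an antisense RNA of the Hoxd cluster, had 119.8 and 153.0 in the tumours with the probe set 1460056_at, against 6.2 and 6.4 in epidermis, and 10.0, 3.1 and 4.4 in PDKC1 at 0 h, 6 h and 10 h. The log2 difference, tumour minus epidermis, was 2.76 ± 0.46 (SE, 2 arrays per group; adjusted p = 0.00577 by limma over all probe sets). It was called in 10 of 11 alternatives, the exception being the fit without epidermis array 1 (adjusted p = 0.0527). Its other probe set had 7.6 and 17.6 in the tumours, against 28.9 and 11.7 in epidermis, and was not called. Hoxb5os, an antisense RNA of the Hoxb cluster, had 88.6 and 79.5 in the tumours, against 172.1 and 244.6 in epidermis (-1.15 ± 0.41, adjusted p = 0.0801). Hoxd3os1 was singled out after its values were seen.

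Another 3 probe sets were each shared by a pair of Hox genes. The set shared by Hoxb8 and Hoxb7 had 61.2 and 12.5 in the tumours, against 81.3 and 113.7 in epidermis, over the array median in epidermis only. The sets shared by Hoxd4 and Hoxd3 had 18.7 to 66.2 in the tumours, against 14.4 to 49.6 in epidermis. Evx1 and Evx2, homeobox genes at the ends of the Hoxa and Hoxd clusters, had 11.4 and 28.4 against 76.6 and 13.2, and 62.4 and 104.2 against 51.3 and 80.4, with overlapping groups.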
